A study of Mus musculus with 12 samples.

Results

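The colony-stimulating factors and their receptors comprise 7 genes, 3 encoding ligands (Csf1, Csf2 and Csf3) and 4 encoding receptor chains (Csf1r, Csf2ra, Csf2rb and Csf3r). They were taken by gene symbol from the annotated probe sets of the array. All 7 were found among the 19938 genes measured, each with 1 probe set carrying its symbol alone. RNA came from the spleens of C57BL/6 mice on 12 Affymetrix arrays, 4 for each of 3 labels. The first label was septic TLR-deficient, meaning mice deficient in Toll-like receptor (TLR) signalling, whose titles read Trifxmyd, after colon ascendens stent peritonitis (CASP), an operation in which a stent placed in the colon leaks gut contents into the abdomen. The second was septic wildtype after the same operation, and the third untreated wildtype. The labels give neither the time after surgery nor age, sex or alleles, and there were no untreated TLR-deficient mice, so genotype cannot be told apart from the response to peritonitis in that genotype. Each array is labelled a biological replicate, and the p-values measure the spread between these arrays.

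Colony-stimulating factors are secreted proteins that keep myeloid cells alive and make their progenitors divide and mature. Csf1 (macrophage colony-stimulating factor, M-CSF) acts through the receptor tyrosine kinase Csf1r and maintains macrophages, among them those of the splenic red pulp. Csf2 (granulocyte-macrophage colony-stimulating factor, GM-CSF) binds the alpha chain Csf2ra, which signals with the common beta chain Csf2rb, shared with the receptors for interleukin-3 and interleukin-5. Csf3 (granulocyte colony-stimulating factor, G-CSF) acts through Csf3r on neutrophils and their precursors and drives the emergency production of neutrophils in bacterial infection. In inflamed tissue Csf2 and Csf3 are known to be induced by interleukin-1, tumour necrosis factor and microbial products.

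The arrays did not group as labelled, which bears on every value below. Only 5 of the 12 arrays were most correlated, across genes, with an array of their own label. The array titled M10, septic wildtype replicate 2, stood apart: it correlated with the others at 0.774 to 0.817 and its log2 values had a standard deviation of 1.52, whereas the other 11 arrays correlated with each other at 0.959 to 0.992 with standard deviations of 2.11 to 2.24. The adaptor genes Myd88 and Ticam1 (which encodes Trif) gave no check of the genotype, since Myd88 ranged from 8.62 to 9.64 on the septic TLR-deficient arrays, 6.48 to 9.20 on the septic wildtype arrays and 8.87 to 9.75 on the untreated arrays, and Ticam1 from 5.80 to 5.93, 5.64 to 6.22 and 5.76 to 6.57 in that order. Where their probes lie relative to the deleted parts is not known here. Group names below are those of the labels, and every labelled mean, difference and p-value rests on those labels being right, which was not tested. All values are log2 expression values, on which a step of 1 is a 2-fold change, and the number of arrays limits their precision. As a description of the low end, 1027 olfactory receptor genes, which the spleen is taken not to express, had a 95th percentile between 4.41 and 4.84 on 11 arrays and of 5.82 on M10.

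Csf3 varied most of the 7 genes, with a span of 3.53 (11.6-fold) over the 12 arrays. It stood at 7.71, 7.32, 6.33 and 4.66 on the septic TLR-deficient arrays, at 4.20, 5.98, 4.41 and 4.19 on the septic wildtype arrays and at 4.43, 4.29, 4.46 and 7.72 on the untreated arrays, each in the order of replicates 1 to 4. The 4 highest values came from septic TLR-deficient replicates 1 to 3 and untreated replicate 4, so all 3 labels overlapped. The value of 5.98 belonged to M10, on which low values in general sat higher. Csf3 was above the 95th percentile of the olfactory receptor genes on 6 arrays, the 4 highest together with M10 and septic TLR-deficient replicate 4, and within their range on the other 6.

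Csf2 stayed at the low end of the arrays. It stood at 3.77, 4.71, 3.92 and 3.59 on the septic TLR-deficient arrays, at 3.70, 4.69, 3.69 and 3.81 on the septic wildtype arrays and at 3.37, 3.79, 3.87 and 3.84 on the untreated arrays. It passed the 95th percentile of the olfactory receptor genes on 1 array, septic TLR-deficient replicate 2, where that percentile was 4.67. Its level is therefore not separable from that of genes taken as silent on the other 11 arrays, and no change in Csf2 was detectable with this probe set.

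Csf1 was well above that range on every array and kept within a span of 1.48. It stood at 8.30, 7.82, 7.37 and 7.69 on the septic TLR-deficient arrays, at 8.0, 6.83, 7.94 and 7.47 on the septic wildtype arrays and at 7.53, 8.07, 8.31 and 7.85 on the untreated arrays. The lowest value was that of M10, and without it the span was 0.94. The labels overlapped, and the highest septic TLR-deficient and untreated values, 8.30 and 8.31, lay side by side.

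**Figure D1:**
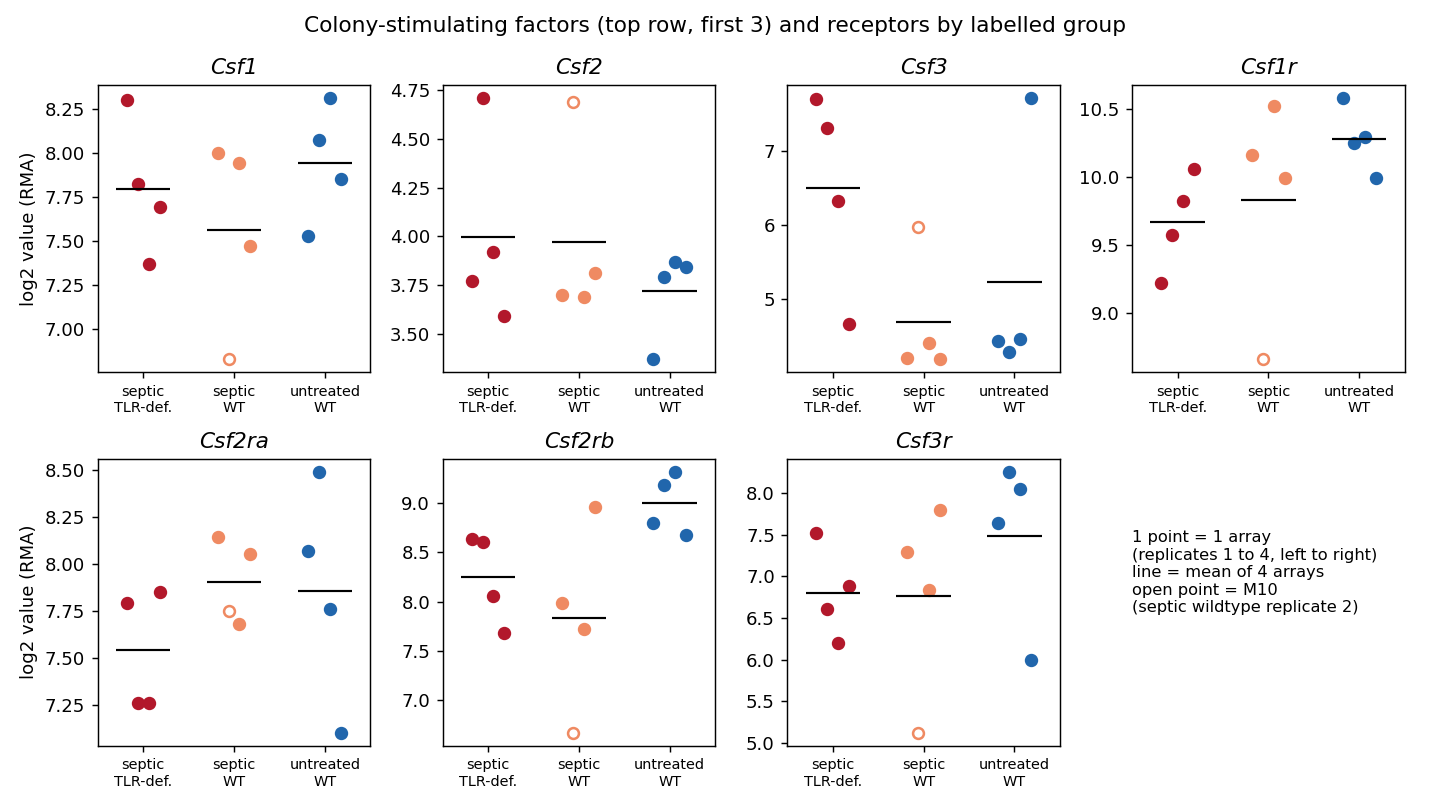
Log2 expression (y axis) of the 7 genes by labelled group (x axis), 1 panel per gene, each with its own scale. Points are single arrays, the line is the mean of 4 arrays and the open point is M10; Csf3 was at 7.71, 7.32 and 6.33 on 3 septic TLR-deficient arrays and at 7.72 on 1 untreated array.

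Csf1r, the receptor through which Csf1 keeps macrophages alive, ran against Csf3. It stood at 9.22, 9.57, 9.82 and 10.06 on the septic TLR-deficient arrays, at 10.16, 8.66, 10.52 and 9.99 on the septic wildtype arrays and at 10.58, 10.25, 10.29 and 9.99 on the untreated arrays. Leaving out M10, the lowest array, the 3 lowest were septic TLR-deficient replicates 1, 2 and 3, all of them arrays with high Csf3. Untreated replicate 4, with the highest Csf3 (7.72), had Csf1r at 9.99. Septic wildtype replicate 4, with the lowest Csf3 (4.19), had Csf1r at the same 9.99. The r between Csf1r and Csf3 was -0.612 over 12 arrays and -0.778 over 11. A negative r with Csf3 was not particular to Csf1r: it was -0.741 and -0.744 for Csf2ra and -0.529 and -0.602 for Csf3r. For Csf2rb the r with Csf3 was -0.064 and 0.019. The untreated arrays overlapped with both septic groups.

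Csf3r, the receptor of neutrophils for Csf3, did not follow its ligand. It stood at 7.52, 6.61, 6.2 and 6.88 on the septic TLR-deficient arrays, at 7.29, 5.12, 6.84 and 7.80 on the septic wildtype arrays and at 7.64, 8.26, 8.05 and 6.00 on the untreated arrays. The untreated array with the highest Csf3, replicate 4, had the lowest Csf3r of all arrays but M10, and the other 3 untreated arrays were 3 of the 4 highest. On M10 Csf3r lay below the 95th percentile of the olfactory receptor genes, and on the other 11 arrays above it.

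Csf2rb, the shared beta chain, stood at 8.64, 8.61, 8.06 and 7.68 on the septic TLR-deficient arrays, at 7.99, 6.67, 7.72 and 8.96 on the septic wildtype arrays and at 8.80, 9.19, 9.32 and 8.68 on the untreated arrays. Every septic TLR-deficient array lay below every untreated array, by a margin of 8.64 against 8.68 at the closest. Csf2ra, the chain specific for Csf2, stood at 7.79, 7.26, 7.26 and 7.85 on the septic TLR-deficient arrays, at 8.14, 7.75, 7.68 and 8.05 on the septic wildtype arrays and at 8.07, 8.49, 7.76 and 7.10 on the untreated arrays. Its 3 lowest values came from septic TLR-deficient replicates 2 and 3 and untreated replicate 4, which were also among the 4 arrays with high Csf3. M10 lay within the range of the other septic wildtype arrays for Csf2ra, and outside it for the other 6 genes. In bulk tissue fewer cells of a type and less RNA per cell cannot be told apart.

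Csf2ra and Csf3r were the most alike of the 21 pairs among the 7 genes once M10 was left out, with a Pearson's r of 0.860 over 11 arrays and 0.668 over 12, given as a description; over 12 arrays Csf2rb and Csf3r were the most alike (0.778, and 0.599 over 11). The RefSeq promoter table held 4 of the 7 genes, Csf1, Csf2, Csf2ra and Csf3r. The 250 bases before the RefSeq start sites of Csf2ra and Csf3r are shown with that of Csf1, the 1 ligand well above the low end on every array, in build GRCm38.p6 and read 5′ to 3′ on the strand of the gene. Capitals mark matches, on either strand, to the core GAGGAA bound by the myeloid factor PU.1 (encoded by Spi1) or to a form of the kappaB site of NF-kappaB factors, which reads G, G, G, A, any base, T, T, any base, C, C; no match overlapped one of the other motif. The Csf3r stretch is chr4:126024409-126024658 on the plus strand, that of Csf2ra chr19:61228419-61228668 on the minus strand and that of Csf1 chr3:107760470-107760719 on the minus strand.
Csf3r: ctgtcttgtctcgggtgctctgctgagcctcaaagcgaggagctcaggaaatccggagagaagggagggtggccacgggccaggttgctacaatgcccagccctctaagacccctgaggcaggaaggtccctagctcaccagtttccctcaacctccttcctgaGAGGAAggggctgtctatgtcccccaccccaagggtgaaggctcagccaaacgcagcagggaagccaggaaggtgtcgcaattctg
Csf2ra: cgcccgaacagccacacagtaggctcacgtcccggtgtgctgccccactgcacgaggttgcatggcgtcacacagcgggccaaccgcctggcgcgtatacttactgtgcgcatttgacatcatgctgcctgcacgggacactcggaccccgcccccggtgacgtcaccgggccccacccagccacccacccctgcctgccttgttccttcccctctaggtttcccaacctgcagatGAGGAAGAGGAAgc
Csf1: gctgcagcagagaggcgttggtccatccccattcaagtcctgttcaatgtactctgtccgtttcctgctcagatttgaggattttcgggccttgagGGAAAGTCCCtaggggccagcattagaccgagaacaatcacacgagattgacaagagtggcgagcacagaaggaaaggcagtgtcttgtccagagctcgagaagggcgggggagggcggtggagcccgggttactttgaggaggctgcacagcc
Csf3r held 1 GAGGAA, at positions -86 to -81 relative to the start. Csf2ra held 2 in a row, at -14 to -9 and at -8 to -3. Csf1 held the kappaB letters on the opposite strand, at -154 to -145. The window of Csf2 held neither set of letters. Of the 32851 windows of 300 bases in the RefSeq promoter table, 28.3% held GAGGAA and 1.2% the kappaB letters. Spi1 itself averaged 7.98 ± 0.32 on the septic TLR-deficient arrays, 7.68 ± 0.42 on the septic wildtype arrays and 8.31 ± 0.64 on the untreated arrays (SD, n = 4 each). Its r over 12 arrays was 0.22 with Csf2ra, 0.68 with Csf3r and 0.67 with Csf1, whose window held no GAGGAA. Over 11 arrays these were 0.25, 0.51 and 0.45. Whether PU.1 acts on these genes here was not tested.

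Setting septic TLR-deficient beside septic wildtype spleens asks, by the labels, what the deficiency alters in peritonitis. Csf3 had the largest difference of the 7 genes, averaging 6.51 ± 1.36 on the septic TLR-deficient arrays and 4.69 ± 0.86 on the septic wildtype arrays (SD, n = 4 each). The difference was 1.81 (SE 0.80, 95% confidence interval 0.08 to 3.54), with an unadjusted p = 0.0412 and an adjusted p = 0.590 in limma. It ranged from 1.41, without septic TLR-deficient replicate 1, to 2.43, without septic TLR-deficient replicate 4, and was 2.24 without M10. The intervals of the other 6 genes held 0: Csf2rb differed by 0.41 (95% confidence interval -0.44 to 1.26), Csf1 by 0.24 (-0.38 to 0.85), Csf3r by 0.04 (-1.21 to 1.28), Csf2 by 0.03 (-0.58 to 0.64), Csf1r by -0.16 (-0.90 to 0.57) and Csf2ra by -0.36 (-0.96 to 0.23). Without M10 the differences of Csf2rb, Csf1, Csf3r, Csf2 and Csf1r were 0.025, -0.007, -0.51, 0.27 and -0.55. The intervals over 12 arrays leave room for differences of over 2-fold in either direction for Csf3r and in the positive direction for Csf2rb. None of the 7 genes passed an adjusted p of 0.05, and neither did any other gene (0%); at an unadjusted p under 0.05, 1 of the 7 passed, and 6.65% of all genes.

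Between septic and untreated wildtype spleens, a comparison of the operation in mice with intact TLR signalling, Csf2rb stood furthest apart. It averaged 7.83 ± 0.94 on the septic wildtype arrays and 9.0 ± 0.30 on the untreated arrays (SD, n = 4 each), a difference of -1.16 (SE 0.39, 95% confidence interval -2.01 to -0.31, unadjusted p = 0.0115, adjusted p = 0.439 in limma). Without M10 the difference was -0.77, and without septic wildtype replicate 4 it was -1.54. Csf3r differed by -0.73 (95% confidence interval -1.97 to 0.52) and Csf1r by -0.45 (-1.18 to 0.29), and without M10 by -0.18 and -0.055. Without untreated replicate 4 the difference of Csf3r was -1.22. Csf3 differed by -0.53 (-2.26 to 1.19), a value that turned to 0.30 without untreated replicate 4. Csf1 differed by -0.38 (-1.0 to 0.24), Csf2 by 0.25 (-0.36 to 0.86) and Csf2ra by 0.05 (-0.55 to 0.64). None of the 7 passed an adjusted p of 0.05, where the share among all genes was 0%, and 1 of the 7 had an unadjusted p under 0.05, where the share was 8.81%.

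The third comparison, septic TLR-deficient against untreated wildtype spleens, changes genotype and operation together and shares its arrays with the other two. Csf2rb was the 1 gene of the 7 whose labelled groups did not overlap, which held for 3.4% of all genes here, 3.8% between the septic groups and 6.42% between septic and untreated wildtype, and for none of the 7 in those other comparisons. Csf2rb averaged 8.25 ± 0.46 on the septic TLR-deficient arrays and 9.0 ± 0.30 on the untreated arrays (SD, n = 4 each), a difference of -0.75 (95% confidence interval -1.60 to 0.10, adjusted p = 1 in limma). Csf3 differed by 1.28 (-0.45 to 3.01), and by 2.11 without untreated replicate 4. Csf3r differed by -0.69 (-1.93 to 0.55), Csf1r by -0.61 (-1.34 to 0.13), Csf2ra by -0.32 (-0.91 to 0.28), Csf1 by -0.14 (-0.76 to 0.47) and Csf2 by 0.28 (-0.33 to 0.89). No gene of the 7 passed an adjusted p of 0.05 (0% of all genes) and none an unadjusted p under 0.05 (1.88% of all genes).

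**Figure D2:**
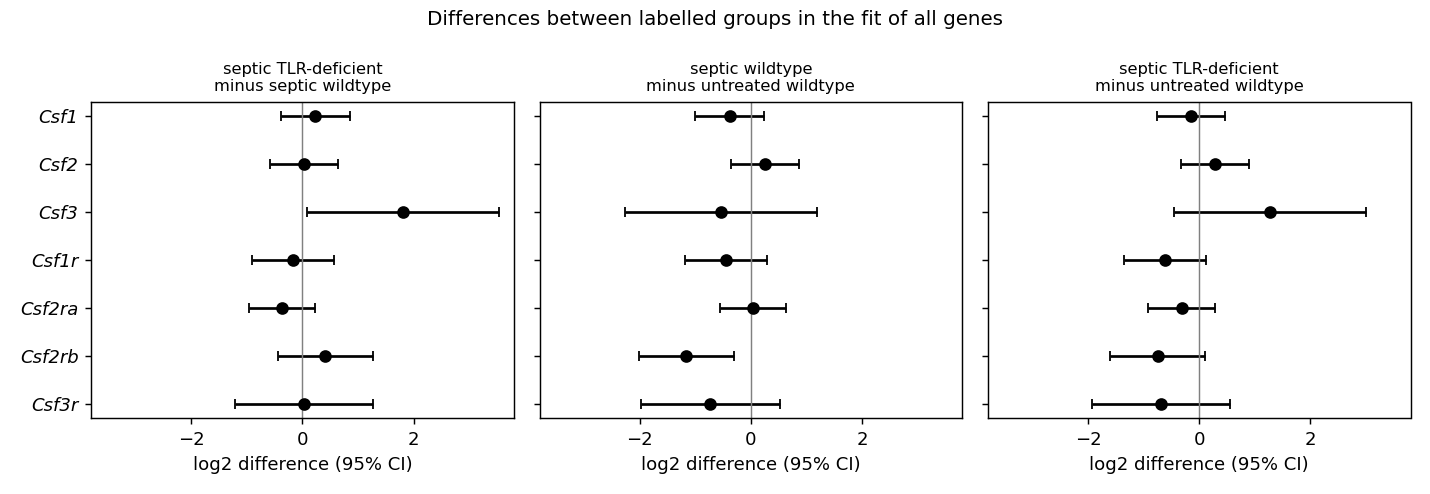
Difference in mean log2 value (x axis) of each gene (y axis) for the 3 comparisons of labelled groups, first group named minus second, with 95% confidence intervals from the limma fit of 19938 genes on 12 arrays. The intervals that leave out 0 are those of Csf3 between the septic groups and of Csf2rb between septic and untreated wildtype.

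Because arrays were often closest to one of another label, the values were also set out by running title number, in the blocks M5 to M7 with M16, M8 to M11, and M12 to M15. These blocks are not groups that the labels give, and they cut across them: M16 is labelled untreated, M8 septic TLR-deficient and M12 septic wildtype. They are the labelled groups displaced by 1 title number, and whether arrays and labels were displaced in that way was not tested. They were proposed with results of these data in view, so ranges are given with no test. Csf3 ranged from 6.33 to 7.72 in M5 to M7 with M16, from 4.20 to 5.98 in M8 to M11 (4.20 to 4.66 without M10) and from 4.19 to 4.46 in M12 to M15. The first block thus lay above all 8 other arrays, as it did for 1.72% of all genes. Csf3r and Csf2rb were highest in M12 to M15, at 7.64 to 8.26 and 8.80 to 9.32, and did not overlap there with either other block. Csf3r ranged from 6.00 to 7.52 in M5 to M7 with M16 and from 5.12 to 7.29 in M8 to M11. Csf2rb ranged from 8.06 to 8.68 and from 6.67 to 7.99 in the same blocks, so that its 3 blocks had 3 separate ranges, with M10 or without it.

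Counted over the 7 genes, 2 did not overlap between M5 to M7 with M16 and M8 to M11 (Csf3 and Csf2rb), where 10.2% of all genes did not. Without M10 it was 4 of 7, against 19.2%, Csf1r and Csf2 joining with gaps of 0.07 each, Csf2 being at the low end of the arrays. Between M5 to M7 with M16 and M12 to M15 it was 3 of 7 (Csf3, Csf2rb and Csf3r), against 11.9%. Between M8 to M11 and M12 to M15 it was 2 of 7 (Csf2rb and Csf3r) with M10 or without it, against 9.47% and 14.2%. Csf1 and Csf2ra overlapped between all blocks. With 7 genes, 1 gene more or less moves these shares widely.

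**Figure D3:**
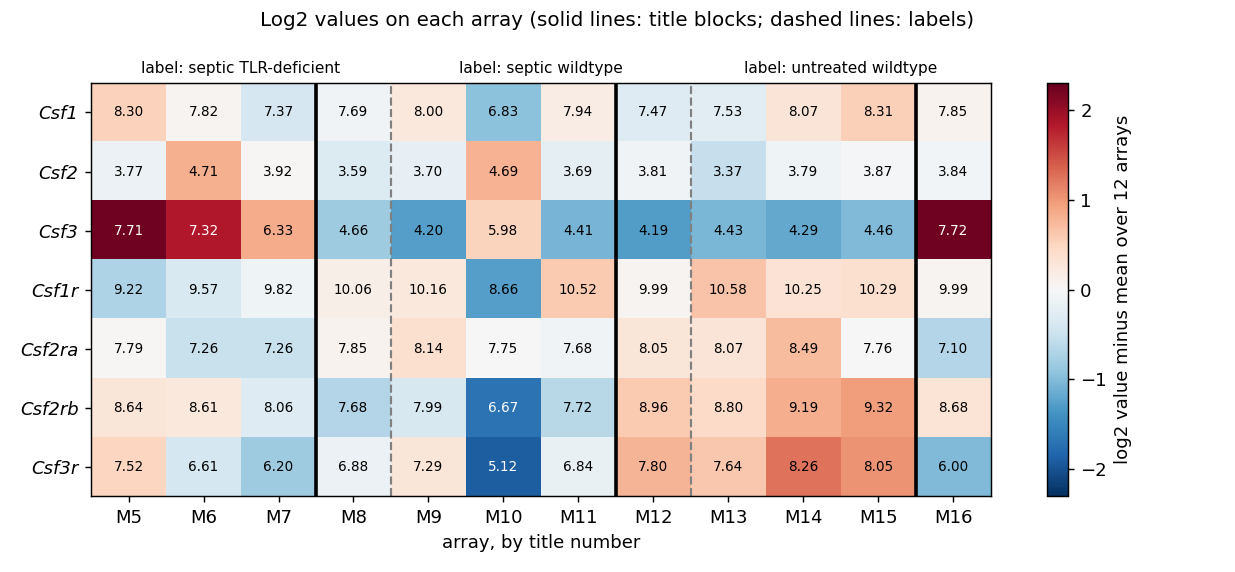
Log2 values (numbers) of the 7 genes on the 12 arrays in the order of their title numbers, coloured by the value minus the mean of the gene over 12 arrays. Solid lines part the title blocks and dashed lines the labels; M5, M6, M7 and M16 had Csf3 at 6.33 or more, and M12 to M15 had Csf3r at 7.64 or more.

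The genes whose values were most like those of each member over 12 arrays were named, 3 per member, by Pearson's r as a description. The arrays share the separation of the title blocks and the narrow scale of M10, and many genes reach a high r on so few points. For Csf3 they were Medag (0.973), Cxcl1 (0.966), a chemokine that draws neutrophils, and Slc35g2 (0.959). For Csf2rb they were Irf7 (0.978), a transcription factor of the interferon response, 1600014C10Rik (0.973) and Slfn1 (0.971), a member of the Schlafen family. For Csf1r they were Vcam1 (0.956), an adhesion molecule also found on splenic macrophages, Man2b1 (0.946), a lysosomal mannosidase, and Usp20 (0.943), a deubiquitinase. For Csf3r they were Pou2af1 (0.968), a B cell transcriptional coactivator, Mpi (0.961) and Cops7a (0.960). For Csf1 they were Hcls1 (0.962), a cytoskeletal protein of blood cells, Stk40 (0.948) and Prex1 (0.947), an activator of Rac. For Csf2ra they were Fgd4 (0.911), E330020D12Rik (0.897) and Sirt4 (0.887), and for Csf2, at the low end, 1700012B07Rik (0.932), Mroh9 (0.918) and Cfap58 (0.911). Without M10 these 21 values of r lay between 0.854 and 0.988.

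**Figure D4:**
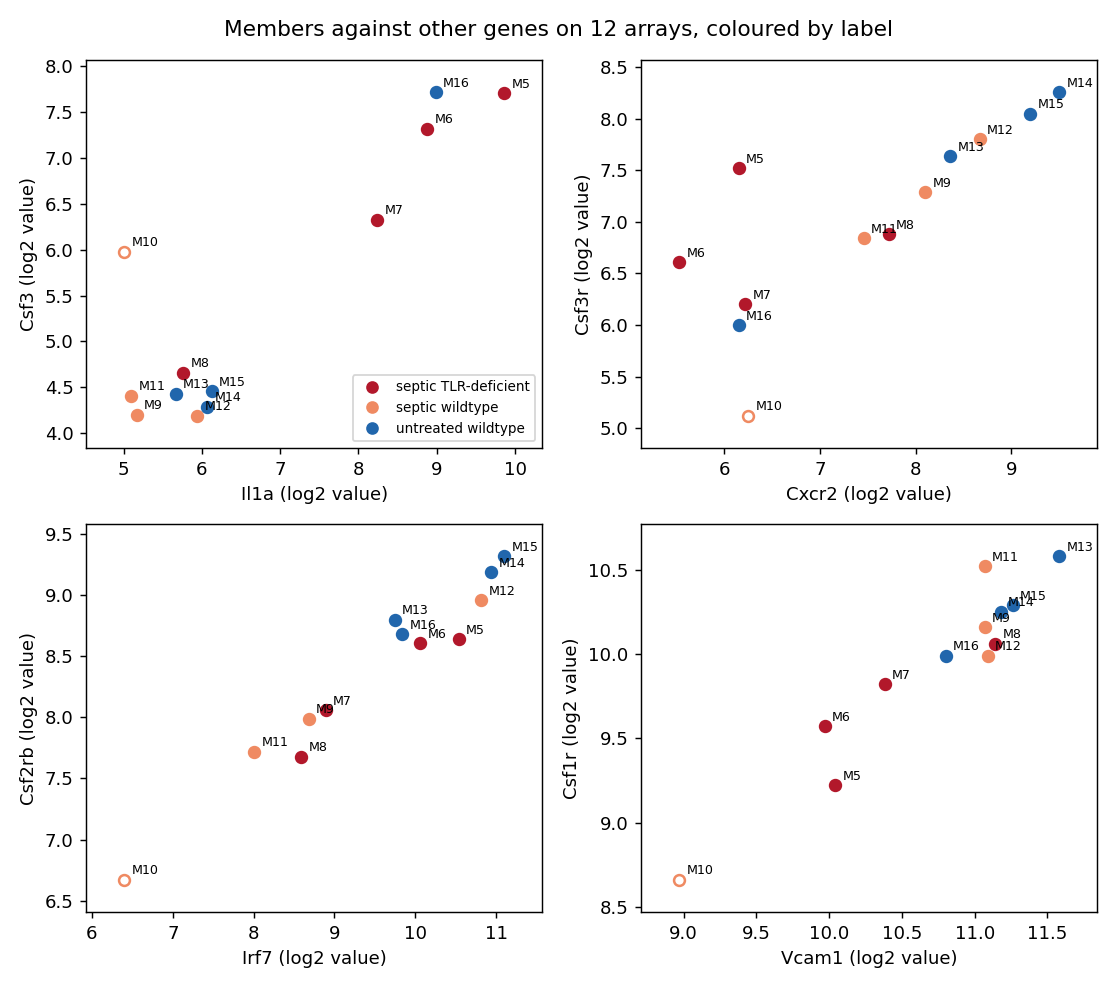
Log2 value of a member (y axis) against that of another gene (x axis) on the 12 arrays, coloured by label, with M10 as an open point. Csf3 against Il1a shows 4 arrays apart from the rest, Csf3r against Cxcr2 shows M5 at 7.52 for Csf3r and 6.15 for Cxcr2, away from M7 and M16 at like Cxcr2, and M10 is lowest for both genes in the panels of Csf2rb and Csf1r.

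The relatives of these ligands and receptors differed among themselves. Il34, the second ligand of Csf1r, stood at 6.91, 7.13, 7.02 and 6.80 on the septic TLR-deficient arrays, at 6.54, 6.05, 6.96 and 6.29 on the septic wildtype arrays and at 6.58, 6.57, 6.53 and 7.14 on the untreated arrays, a difference of 0.50 (SE 0.22, adjusted p = 0.590 in limma) between the septic groups. Csf2rb2, the mouse beta chain specific for interleukin-3, averaged 6.87 ± 0.13, 6.82 ± 0.48 and 7.58 ± 0.54 on the septic TLR-deficient, septic wildtype and untreated arrays (SD, n = 4 each) and ran with Csf2rb (r 0.860 over 12 arrays and 0.830 over 11). The 2 beta chain genes are close relatives, and whether their probe sets take up each other's transcripts was not tested. Il3ra averaged 6.58 ± 0.12, 6.35 ± 0.10 and 6.64 ± 0.22 and Il5ra 5.36 ± 0.84, 5.81 ± 0.43 and 5.61 ± 0.45 in that order (SD, n = 4 each). Il3 and Il5, the other ligands of receptors with Csf2rb, were within the range of the olfactory receptor genes on all 12 arrays. Of these 6 genes 0 passed an adjusted p of 0.05 in limma in any comparison. At an unadjusted p under 0.05 there was 1 in each comparison, beside 6.65%, 8.81% and 1.88% of all genes.

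Genes that induce colony-stimulating factors or limit their mRNA ran in part with Csf3. Il1a, an alarm cytokine, stood at 9.86, 8.88, 8.24 and 5.76 on the septic TLR-deficient arrays, at 5.17, 5.01, 5.10 and 5.94 on the septic wildtype arrays and at 5.67, 6.07, 6.13 and 8.99 on the untreated arrays, high on the same 4 arrays as Csf3 (r 0.880 over 12 arrays and 0.970 over 11). Tnf did not part the arrays in this way, with the highest values of 7.57 and 7.44 on septic TLR-deficient replicates 1 and 2 and 7.6 and 7.48 on untreated replicates 2 and 3, and M16 at 6.63. Il1b averaged 8.42 ± 1.25, 7.47 ± 0.61 and 8.89 ± 0.61 on the septic TLR-deficient, septic wildtype and untreated arrays, and Zc3h12a, an RNase that degrades inflammatory mRNAs, 7.81 ± 0.71, 6.69 ± 0.77 and 7.64 ± 0.52 (SD, n = 4 each). Zfp36, which destabilises mRNAs such as that of Csf2, had a difference of 0.69 (SE 0.34) between the septic groups, or 0.34 without M10, and Il17a one of -0.09 (SE 0.31), or 0.14 without M10. Of 14 inducers and regulators 12 were measured and 0 passed an adjusted p of 0.05 in limma in any comparison, with 5, 5 and 0 at an unadjusted p under 0.05 in the order of the comparisons above, where the shares of all genes were 6.65%, 8.81% and 1.88%. Their median difference was 0.82 between the septic groups (0.56 without M10), beside -0.06 (-0.01) for all genes, -0.95 (-0.63 without M10) between septic and untreated wildtype, beside 0.07 (0.02), and 0.03 between septic TLR-deficient and untreated, beside 0.01.

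Downstream, colony-stimulating factor receptors signal through Jak kinases and Stat factors, which switch on feedback inhibitors. Socs3, the feedback inhibitor of Csf3r signalling, stood at 9.22, 9.63, 8.95 and 6.03 on the septic TLR-deficient arrays, at 6.18, 5.35, 6.43 and 7.59 on the septic wildtype arrays and at 7.76, 7.86, 8.16 and 9.61 on the untreated arrays. Every septic wildtype array lay below every untreated array, and the difference was -1.96 (SE 0.72, adjusted p = 0.439 in limma). Cish, a target of Stat5 that receptors with Csf2rb induce, averaged 6.02 ± 0.62, 5.68 ± 0.55 and 6.49 ± 0.20 on the septic TLR-deficient, septic wildtype and untreated arrays (SD, n = 4 each) and ran with Csf2rb (r 0.880 over 12 arrays and 0.890 over 11). Between the septic groups Stat3 differed by 0.92 (SE 0.41), Pim1, a survival kinase induced by Stat5, by 0.63 (SE 0.37), Stat5a by 0.23 (SE 0.24) and Jak2 by 1.46 (SE 0.75). Without M10 these differences were 0.52, 0.73, 0.38 and 0.42, Jak2 on M10 being at 4.84. Of 20 signalling genes 18 were measured and 0 passed an adjusted p of 0.05 in limma in any comparison, with 5, 7 and 1 at an unadjusted p under 0.05, beside 6.65%, 8.81% and 1.88% of all genes. Their medians were 0.66 between the septic groups (0.40 without M10), -0.83 between septic and untreated wildtype (-0.44 without M10) and -0.22 between septic TLR-deficient and untreated, beside the medians of all genes given above.

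The transcription factors of granulocyte production did not all differ alike. Cebpb and Cebpd, which take over in emergency granulopoiesis and inflammation, differed by 1.21 (SE 0.44) and 1.32 (SE 0.53) between the septic groups and by -1.37 (SE 0.44) and -1.0 (SE 0.53) between septic and untreated wildtype. Cebpa and Cebpe, which steer steady granulocyte differentiation, differed by 0.05 (SE 0.19) and -0.11 (SE 0.20) between the septic groups. Gfi1, a repressor needed for neutrophil maturation, differed by 0.18 (SE 0.17) and Irf8, which favours monocytes and dendritic cells over granulocytes, by -0.12 (SE 0.31), or -0.46 without M10. All 10 genes of this list were measured and 0 passed an adjusted p of 0.05 in limma, with 2, 2 and 0 at an unadjusted p under 0.05, beside 6.65%, 8.81% and 1.88% of all genes. Their medians were 0.24 between the septic groups (0.13 without M10), -0.45 between septic and untreated wildtype (-0.19 without M10) and -0.06 between septic TLR-deficient and untreated.

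Markers of the cells that carry the receptors moved with them in part. All 16 neutrophil genes were measured, and their mean log2 level ranged from 6.45 to 7.61 on the septic TLR-deficient arrays, 6.34 to 7.69 on the septic wildtype arrays and 6.10 to 7.90 on the untreated arrays. Of the 16 genes 0 passed an adjusted p of 0.05 in limma in any comparison. At an unadjusted p under 0.05 there were 0, 2 and 5, beside 6.65%, 8.81% and 1.88% of all genes. Csf3r had an r of 0.610 with the mean neutrophil level over 12 arrays and 0.590 over 11. This was not particular to neutrophils. Over 12 arrays the r was 0.73 with the stroma and endothelium list, 0.72 with macrophages and monocytes, 0.69 with dendritic cells and 0.65 with B cells. Over 11 arrays these were 0.45, 0.48, 0.68 and 0.58. It was lower with the T cell list (0.54 and 0.43) and the eosinophil, basophil and mast cell list (-0.2 and 0.28). Within the neutrophil list Csf3r ran with Cxcr2, a chemokine receptor of mature neutrophils (r 0.780 and 0.820), and S100a8 (0.600 and 0.530). It did not run with the granule genes of precursors Elane (-0.270 and -0.320) and Mpo (-0.170 and -0.030). Cxcr2 stood at 6.15, 5.53, 6.22 and 7.72 on the septic TLR-deficient arrays, at 8.10, 6.25, 7.46 and 8.67 on the septic wildtype arrays and at 8.36, 9.5, 9.20 and 6.15 on the untreated arrays, low on M5 to M7, M10 and M16. Camp and Ltf, granule genes of later precursors, averaged 6.36 ± 1.02 and 6.52 ± 0.78 on the septic TLR-deficient arrays, 6.45 ± 0.66 and 6.63 ± 0.74 on the septic wildtype arrays and 5.40 ± 0.20 and 5.92 ± 0.47 on the untreated arrays (SD, n = 4 each). The part of neutrophil number in the values of Csf3r was not tested.

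Of 18 macrophage and monocyte genes 16 were measured, with a mean level of 8.20 to 9.31 on the septic TLR-deficient arrays, 7.5 to 9.31 on the septic wildtype arrays and 8.46 to 9.11 on the untreated arrays, and an r with Csf1r of 0.890 over 12 arrays and 0.750 over 11. Over 12 arrays the r of Csf1r was lower with the stroma and endothelium (0.78), B cell (0.72), dendritic cell (0.67) and T cell (0.63) lists. Over 11 arrays these were 0.44, 0.71, 0.7 and 0.57, so the B cell and dendritic cell lists came close. With the neutrophil list it was 0.26 and 0.09. The macrophage and monocyte genes did not move as one. Cd163, the haemoglobin scavenger receptor of red pulp macrophages, ran with Csf1r (r 0.680 and 0.890), as did Cx3cr1 (0.550 and 0.730). Marco, a scavenger receptor of marginal zone macrophages, stood at 11.65, 10.86, 10.46 and 9.05 on the septic TLR-deficient arrays, at 9.39, 8.37, 9.07 and 9.05 on the septic wildtype arrays and at 9.13, 9.36, 9.25 and 11.50 on the untreated arrays, high on the 4 arrays where Csf3 was high and opposite to Csf1r once M10 was left out (r -0.200 over 12 arrays and -0.780 over 11). Spic, the transcription factor that makes red pulp macrophages, was also opposite to Csf1r without M10 (r 0.020 and -0.780), and Adgre1, a general macrophage marker, had an r of -0.140 and -0.310. The part of macrophage number in the values of Csf1r was not tested.

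Csf3 had its largest negative r with the dendritic cell and B cell lists, -0.910 and -0.890 over 12 arrays and -0.920 for both over 11. All 8 dendritic cell genes had a mean level of 5.87 to 6.09 in M5 to M7 with M16, 6.15 to 7.54 in M8 to M11 and 7.14 to 7.68 in M12 to M15. The 8 of 9 B cell genes measured had 8.11 to 8.40, 8.24 to 10.22 and 9.56 to 9.85. Without M10 the ranges in M8 to M11 were 7.21 to 7.54 for the dendritic cell list and 9.9 to 10.22 for the B cell list. The dendritic cell genes did not move as one. Clec9a had an r of -0.96 with Csf3 over 12 arrays, and Zbtb46 one of -0.53. Zbtb46 ranged from 5.92 to 6.32, 5.99 to 6.52 and 6.01 to 6.36 in the same blocks. Between the septic groups 6 of the 8 had a lower mean on the septic TLR-deficient arrays and 2 a higher one, from -1.92 for Clec9a to 0.27 for Bst2. The T cell list (9 of 10 measured) had an r of -0.750 with Csf3, the eosinophil, basophil and mast cell list (10 of 10) -0.600 and the natural killer cell list (7 of 7) -0.700 over 12 arrays. Over 11 arrays these were -0.76, -0.81 and -0.71. The macrophage and monocyte list had an r of -0.68 with Csf3 over 12 arrays and -0.88 over 11, and the neutrophil list -0.38 and -0.36. Stroma and endothelium, known sources of Csf1 and Csf3, had a mean level over 13 genes that ran with Csf1 (r 0.860 over 12 arrays and 0.720 over 11) and not with Csf3 (-0.260 and -0.310). The erythroid list (6 of 9 measured) stayed between -0.410 and 0.350 with all 7 genes over 12 arrays. What these cell types contribute to Csf1 and Csf3 was not tested.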

How the data were processed

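Total RNA of mouse spleen was amplified and labelled with whole-transcript kits for Affymetrix arrays, per the labels' protocols. The extraction protocol also mentions mutants of an unrelated gene, a statement set aside here. Deposited values are log2 expression per probe set, made by the authors with RMA in Affymetrix Expression Console, per the submitters' processing notes; versions and build are not given in the sources used here. RMA corrects background, makes array distributions alike and summarises probes, so small changes near the low end are compressed. The 12 columns lay between 1.33 and 13.79.

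Of 35557 probe sets, 21789 carried 1 symbol; the brightest per gene over 12 arrays was kept, giving 19938 genes with no filter. Symbols were updated by gene identifier for 21698 probe sets against RefSeq GRCm38.p6, also the source of promoters. limma 3.58.1 (R 4.3.3) fitted 1 mean per label over 12 arrays, with two-sided moderated tests, p-values being adjusted by Benjamini-Hochberg for 19938 genes (threshold 0.05). The fit was tested on simulated data with independent noise. Those data held no outlying array and no title blocks, so the test does not cover these features. Differences are the first group named minus the second. Figures used matplotlib 3.10.9. Members, lists, blocks and the rule for named genes (members, both adaptors, genes marked in the lists, 3 most alike genes per member) were chosen with earlier results of these data known. List genes that were not matched were not analysed here. Alternatives were other probe set summaries, normalizations, a filter at percentile 25, variance models, array weights, a block for replicate number and leaving out each array.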

Additional observations from a re-analysis of the deposited data

Results flagged for a closer look

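In 4 of 21 combinations of gene and label 1 array lay far from the other 3, by a gap over the whole range above Dixon's critical value for 4 values; chance flags about 1 in 20 such groups. Csf3 stood at 7.72 on untreated replicate 4 (M16), against 4.29 to 4.46 on the other untreated arrays. Csf3 stood at 5.98 and Csf2 at 4.69 on septic wildtype replicate 2 (M10), against 4.19 to 4.41 and 3.69 to 3.81 on the other septic wildtype arrays; on M10 the median of the olfactory receptor genes was 4.39, and it was 2.93 to 3.19 on the other 11 arrays. Csf2 stood at 3.37 on untreated replicate 1, against 3.79 to 3.87 on the others, all within the range of the olfactory receptor genes.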

How the results depend on the processing

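Of the 21 differences (7 genes in 3 comparisons), 13 kept their direction under all 20 alternatives, or 19 for Csf2, which the filter at the 25th percentile left out, and none passed an adjusted p of 0.05 under any. Csf3 between the septic groups ranged from 1.41 to 2.43 when single arrays were left out, and Csf2rb between septic and untreated wildtype from -1.54 to -0.77. The count of genes called was 0 in every comparison and alternative but 1, array weights, which called 1 gene between septic and untreated wildtype. Genes at an unadjusted p under 0.05 numbered 606 to 2500, 793 to 3773 and 146 to 2869 in the 3 comparisons. The cause of the turns below was not tested. Between the septic groups Csf1 turned to -0.072 with a further quantile normalization and to -0.039 with array weights, and Csf3r to -0.38 with array weights. Between septic and untreated wildtype Csf1 turned to 0.018 and Csf2 to -0.065 with a further quantile normalization, and Csf2 to -0.058 with array weights. When single arrays were left out, the ranges that crossed 0 were, between the septic groups, -0.007 to 0.38 for Csf1, -0.55 to 0.066 for Csf1r, -0.21 to 0.27 for Csf2 and -0.51 to 0.38 for Csf3r, and, between septic and untreated wildtype, -0.21 to 0.26 for Csf2ra and -0.96 to 0.30 for Csf3. Values of named genes without M10 were added after seeing the data. With the replicate number as a block the differences were unchanged, since each number occurs once per label, and 0 genes were called. Arrays with the same number did not deviate together (r of -0.54 to 0.14 over 12 pairs, 3 of them above 0.1). These deviations from the label means also hold the separation of the title blocks and the narrow scale of M10. They therefore cannot decide whether the numbers pair the samples. Of the genes most like Csf3, Cxcl1 stayed among the first 3 without M10, and Dusp16 (0.992) and Edn1 (0.987) replaced Medag and Slc35g2. For Csf1r, Gas6 (0.95), 1700102P08Rik (0.926) and Abca8a (0.92) replaced all of Vcam1, Man2b1 and Usp20. All genes named for Csf2 were replaced too, and the other members kept some of theirs.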
